A study of Sus scrofa with 9 samples.

Results

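DUSP4, DUSP5, SPRY1 and PHLDA1 are genes that ERK signalling switches on and whose products mostly hold signalling back. They were taken as the probe sets whose only annotated symbol is one of those names. Each of the 4 genes had exactly 1 such probe set, so 4 of 12217 genes with a measured level are described here. The arrays were Affymetrix PorGene 1.0 ST, each hybridised with total RNA of 1 pig sample. Esophageal submucosal glands (ESMG), which secrete mucus and fluid under the esophageal lining, were sampled from pigs 37, 39 and 40. The squamous tissue lying over the glands came from the same 3 pigs, and both tissues are labelled as control esophagus. Spheroids grown in vitro from ESMG are labelled pig 1, 2 and 3, with no stated relation to the tissue pigs. They were cultured in growth factor reduced Matrigel under Advanced DMEM/F12 with B27, N2, 10 mM HEPES and 50 ng/ml of recombinant human EGF. No source used here gives the age, sex or breed of the animals. All 3 spheroid samples had EGF and no tissue sample was cultured, so EGF, culture and the different RNA kit used for spheroids cannot be told apart.

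EGF binds its receptor at the cell surface, and the signal passes through Ras, RAF and MEK to the kinase ERK, which enters the nucleus and raises transcription of many genes. Some of those genes code for brakes. DUSP4 and DUSP5 are nuclear phosphatases that remove the activating phosphates from MAP kinases, DUSP5 with a strong preference for ERK. SPRY1, a Sprouty protein, acts upstream at the membrane and limits Ras-ERK signalling from growth factor receptors, FGF receptors among them. PHLDA1 is a pleckstrin-homology-like protein whose transcript follows ERK activity in human cells. ERK phosphorylation itself was not measured on these arrays, which read transcript levels only.

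Values are log2 RMA levels, a microarray scale on which a difference of 1 is a 2-fold difference. A gene was called when its Benjamini-Hochberg adjusted p, over all 12217 genes, was under 0.05 and its fold was at least 2 in the limma fit of all 9 arrays. Medians of the arrays lay between 6.84 and 7.04 and lower quartiles between 5.36 and 5.65. As a check of the labels, 8 of 8 measured gland epithelial markers were called higher in ESMG than in squamous tissue. Squamous markers gave no such check: 4 of 12 were measured, and none of them was called between the tissues. CRNN lay at 12.27 in ESMG and 12.69 in squamous tissue, and A2ML1 at 12.80 and 13.28. KRT5 lay at 12.85 in ESMG and 13.29 in squamous tissue, and TGM1 at 9.94 and 10.75. The share of squamous epithelium in the ESMG samples was not tested. By their gland markers, the ESMG array of pig 40 lay nearest to squamous tissue. The comparisons of spheroids with ESMG and with squamous tissue share the spheroid arrays, and are given side by side, not as support for each other.

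Between spheroids and ESMG all 4 genes were called, against 16.9% of all genes. DUSP4, DUSP5 and PHLDA1 were higher in spheroids, as were 7.99% of all genes, and SPRY1 was lower, as were 8.91%. Between spheroids and squamous tissue 3 of 4 were called, against 16.7% of all genes, with DUSP4 and PHLDA1 higher (8.61% of all genes), SPRY1 lower (8.05%) and DUSP5 short of the fold minimum. Between ESMG and squamous tissue 1 of 4 was called, PHLDA1, higher in ESMG, against 3.06% of all genes called and 2.65% called higher. Arrays of the groups compared did not overlap for 4 of 4 members in each spheroid comparison, beside 51.3% of all genes against ESMG and 50.4% against squamous tissue, and for 2 of 4 between the tissues, beside 21.6%. The median difference over all genes was 0.085, 0.033 and -0.063 on the log2 scale in these 3 comparisons.

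**Figure D1:**
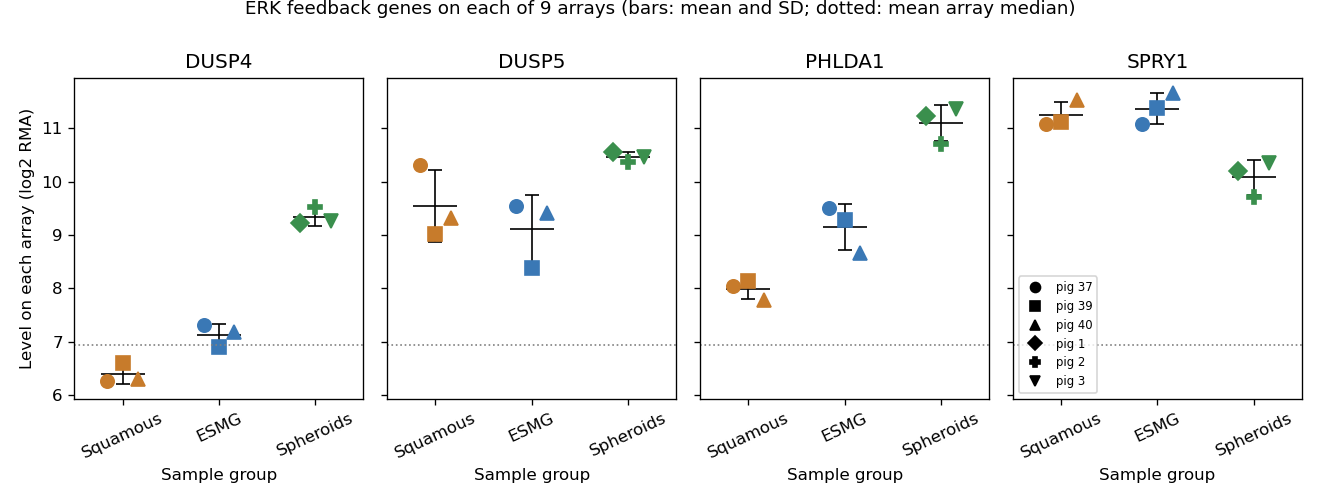
Level of each of the 4 genes (log2 RMA, vertical axis) on each of 9 arrays, by sample group, with the marker giving the pig; black bars are the mean and SD of 3 arrays and the dotted line is the mean of the array medians. DUSP4, DUSP5 and PHLDA1 are highest on the 3 spheroid arrays, and SPRY1 is lowest there, between 9.71 and 10.34.

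DUSP4, the phosphatase that acts on ERK and also on other MAP kinases, showed 3 separate levels. On the squamous arrays of pigs 37, 39 and 40 it lay at 6.26, 6.60 and 6.31, below the median of each array. On the ESMG arrays of the same pigs it lay at 7.31, 6.91 and 7.18, and on the spheroid arrays of pigs 1, 2 and 3 at 9.22, 9.53 and 9.27. No 2 groups overlapped, and the spheroid arrays were the highest. The group means were 6.39 ± 0.18 in squamous tissue, 7.13 ± 0.20 in ESMG and 9.34 ± 0.17 in spheroids (SD, n = 3 each).

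Spheroids exceeded ESMG in DUSP4 by 2.21 on the log2 scale (SE 0.16, 95% interval 1.86 to 2.56, adjusted p = 1.20e-06 by limma), a 4.62-fold difference. By size of rise it ranked 95 of 12217 genes. Against squamous tissue the difference was 2.95 (SE 0.16, 95% interval 2.60 to 3.30, adjusted p = 1.36e-07), or 7.71-fold, rank 54. ESMG exceeded squamous tissue by 0.74 (SE 0.16, 95% interval 0.39 to 1.09, adjusted p = 0.0184 by limma), a 1.67-fold difference that was under the fold minimum. Within pigs 37, 39 and 40 the gland excess was 1.05, 0.30 and 0.87, so it had the same sign in 3 of 3 animals. The adjusted p by limma for that tissue difference was 0.0725 with pig as a fixed replicate block and 0.0290 with pig as a random block. Over all settings run it ranged from 0.0108 to 0.0879.

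PHLDA1 followed the same order of groups as DUSP4. It lay at 8.04, 8.14 and 7.79 on the squamous arrays of pigs 37, 39 and 40 and at 9.50, 9.28 and 8.67 on the ESMG arrays of those pigs. The spheroid arrays of pigs 1, 2 and 3 gave 11.22, 10.71 and 11.36. Again no 2 groups overlapped, with the ESMG array of pig 40 the lowest of the glands. Means were 7.99 ± 0.18 in squamous tissue, 9.15 ± 0.43 in ESMG and 11.10 ± 0.34 in spheroids (SD, n = 3 each).

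PHLDA1 was 3.85-fold higher in spheroids than in ESMG (log2 1.95, SE 0.23, 95% interval 1.45 to 2.45, adjusted p = 4.30e-05 by limma). Against squamous tissue it was 8.62-fold higher (log2 3.11, SE 0.23, 95% interval 2.61 to 3.61, adjusted p = 1.19e-06), rank 46 of 12217 by size of rise. It was the member that the tissues separated most: ESMG was 2.24-fold above squamous tissue (log2 1.16, SE 0.23, 95% interval 0.66 to 1.66, adjusted p = 0.0115 by limma). Within pigs 37, 39 and 40 the gland excess was 1.46, 1.15 and 0.88. The tissue call was lost without the ESMG array of pig 37 (0.99, adjusted p = 0.0498, now under the fold minimum), that of pig 39 (1.10, adjusted p = 0.05003) or the squamous array of pig 40 (1.06, adjusted p = 0.0555). With pig as a replicate block the tissue call was kept (adjusted p by limma 0.00804 for a fixed and 0.0239 for a random block).

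Cell type markers also differed between the tissues in which PHLDA1 and DUSP4 were compared. Beside the gland markers, 2 of 3 plasma cell markers were called higher in ESMG, JCHAIN by 4.47 and DERL3 by 1.49, and the log2 summed level of that list was 12.31 to 13.26 in ESMG and 8.46 to 10.32 in squamous tissue. Of 8 leukocyte markers 1 was higher, LCP1 by 1.24, a call lost in 4 of 15 settings, with log2 summed levels of 11.17 to 12.43 and 10.71 to 11.40. Of 6 smooth muscle markers 2 were lower, PLN (-1.38) and SYNPO2 (-1.29), with a list median of -1.01 and log2 summed levels of 13.61 to 14.15 and 14.27 to 14.55. None of 10 fibroblast or 7 endothelial markers was called. Of all genes 3.06% were called between the tissues. The part of these cells in the differences of PHLDA1 and DUSP4 was not tested.

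DUSP5, the ERK-directed nuclear phosphatase, varied most among the tissue arrays. The squamous arrays of pigs 37, 39 and 40 gave 10.31, 9.02 and 9.31, and the ESMG arrays of those pigs 9.54, 8.38 and 9.41. The spheroid arrays of pigs 1, 2 and 3 gave 10.55, 10.36 and 10.45. The 2 tissues overlapped, while each spheroid array lay above each tissue array. The squamous array of pig 37 was the tissue array nearest to them. Means were 9.55 ± 0.67 in squamous tissue, 9.11 ± 0.63 in ESMG and 10.45 ± 0.10 in spheroids (SD, n = 3 each), so the spread among spheroids was the smallest of the 3.

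Spheroids exceeded ESMG in DUSP5 by 1.34 on the log2 scale (SE 0.34, 95% interval 0.61 to 2.08, adjusted p = 0.00702 by limma), or 2.54-fold. Without the ESMG array of pig 39, the lowest of the 9, the difference was 0.98 (adjusted p = 0.0259) and fell under the fold minimum. Against squamous tissue the difference was 0.91 (SE 0.34, 95% interval 0.17 to 1.65, adjusted p = 0.0496 by limma), or 1.88-fold, and was not called. Without the squamous array of pig 37 it was 1.29 (adjusted p = 0.00625), and with array medians set equal 1.04 (adjusted p = 0.0332), both of which passed. ESMG and squamous tissue did not differ beyond the spread of the arrays (log2 difference -0.44, SE 0.34, 95% interval -1.17 to 0.30, adjusted p = 0.557 by limma). Within pigs 37, 39 and 40 that difference was -0.77, -0.64 and 0.095. With pig as a fixed replicate block its SE was 0.21 and it still did not pass (adjusted p = 0.367 by limma). Leaving out single arrays gave -0.70 to -0.056, the latter without the squamous array of pig 37.

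SPRY1 went the other way from the phosphatases. It lay at 11.08, 11.12 and 11.53 on the squamous arrays of pigs 37, 39 and 40 and at 11.07, 11.37 and 11.66 on their ESMG arrays. The spheroid arrays of pigs 1, 2 and 3 gave 10.19, 9.71 and 10.34. The tissues overlapped, and all 3 spheroid arrays lay below all 6 tissue arrays. Means were 11.24 ± 0.25 in squamous tissue, 11.37 ± 0.29 in ESMG and 10.08 ± 0.33 in spheroids (SD, n = 3 each). Even at its lowest SPRY1 stayed above the upper quartile of its own array, which was 8.45 to 8.52 in spheroids.

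SPRY1 was 2.44-fold lower in spheroids than in ESMG (log2 difference -1.28, SE 0.21, 95% interval -1.74 to -0.83, adjusted p = 0.000407 by limma). Against squamous tissue it was 2.23-fold lower (log2 difference -1.16, SE 0.21, 95% interval -1.61 to -0.71, adjusted p = 0.000830). Without the spheroid array of pig 2 the latter was -0.98 (adjusted p = 0.00402), just under the fold minimum. ESMG and squamous tissue were close, with a log2 difference of 0.12 (SE 0.21, 95% interval -0.33 to 0.58, adjusted p = 0.815 by limma). Within pigs 37, 39 and 40 it was -0.0034, 0.25 and 0.13.

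**Figure D2:**
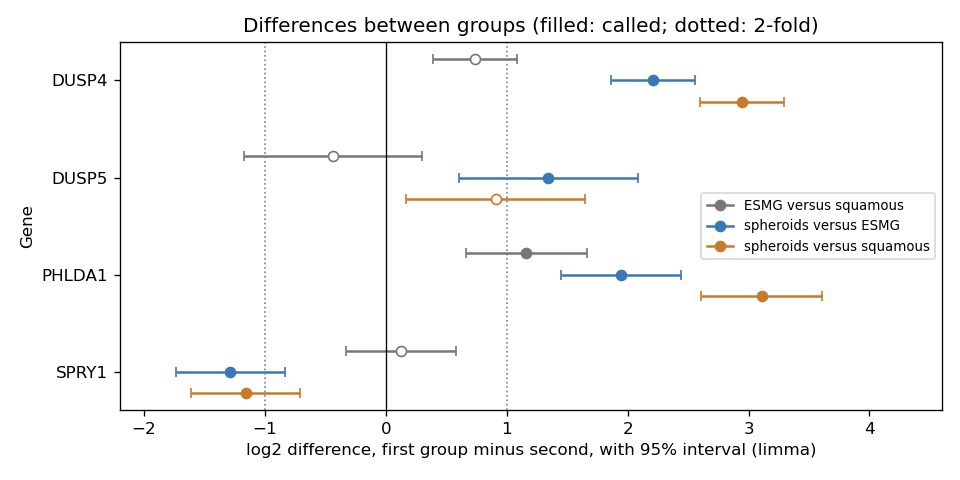
Differences between groups for the 4 genes (horizontal axis, log2, first group minus second) with 95% intervals from limma; filled points were called and dotted lines mark 2-fold. Both spheroid comparisons lie at or above 0.91 for DUSP4, DUSP5 and PHLDA1 and at or below -1.16 for SPRY1.

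Most markers of stromal, muscle and vascular cells, and those of upper squamous layers, were lower in spheroids. Of all genes 8.91% were called lower in spheroids than in ESMG and 8.05% lower than in squamous tissue. Of 10 measured fibroblast markers 9 were called lower in spheroids than in ESMG and none higher, with a median of -3.96. The log2 of their summed level lay between 15.03 and 15.33 in ESMG, 15.09 and 15.29 in squamous tissue, and 11.03 and 11.96 in spheroids. All 6 smooth muscle markers and 6 of 7 endothelial markers were also lower. The log2 summed level of the smooth muscle list was 13.61 to 14.15 in ESMG and 10.43 to 10.90 in spheroids, and that of the endothelial list 11.45 to 11.51 and 9.31 to 9.61. Of 8 leukocyte markers 5 were lower, with log2 summed levels of 11.17 to 12.43 in ESMG and 10.47 to 10.70 in spheroids. CD3E, 1 of the 5, lost its call in 8 of 14 settings. The leukocyte markers not called did not move one way. AIF1 was higher by 0.82 (adjusted p = 0.0321, under the fold minimum) and LCP1 lay at 9.52 in spheroids and 9.51 in ESMG. CD2 lay lower, at 6.80 in spheroids and 7.79 in ESMG, and was called in 1 of 14 settings. Against squamous tissue LCP1 and AIF1 were called higher in spheroids and 4 leukocyte markers lower. Of 3 plasma cell markers 2 were lower than in ESMG. Of 4 squamous markers 2 were called lower than in ESMG, CRNN (-4.04) and A2ML1 (-3.98), with a list median of -2.42. TGM1, at 9.94 in ESMG and 9.08 in spheroids, was not called. KRT5 of the same list went the other way, at 12.85 in ESMG and 13.75 in spheroids. It was not called in the main fit but was called higher in 2 of 14 settings. Against squamous tissue 3 of 4 were lower, with a median of -3.07. The log2 summed level of that list was 14.05 to 14.59 in ESMG, 14.70 to 14.84 in squamous tissue and 13.82 to 14.00 in spheroids. RMA values have no true 0, and no marker of these lists can be called absent.

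Fewer cells of a type and less RNA per cell cannot be told apart in such bulk samples. The part of these cells in the differences of the 4 genes was not tested. Between spheroids and ESMG the differences of the members were -1.28 for SPRY1, 2.21 for DUSP4, 1.34 for DUSP5 and 1.95 for PHLDA1. Of 8 gland epithelial markers 3 were called lower in spheroids than in ESMG and none higher. The highest summed level of the leukocyte list, 12.43, was on the ESMG array of pig 37.

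**Figure D3:**
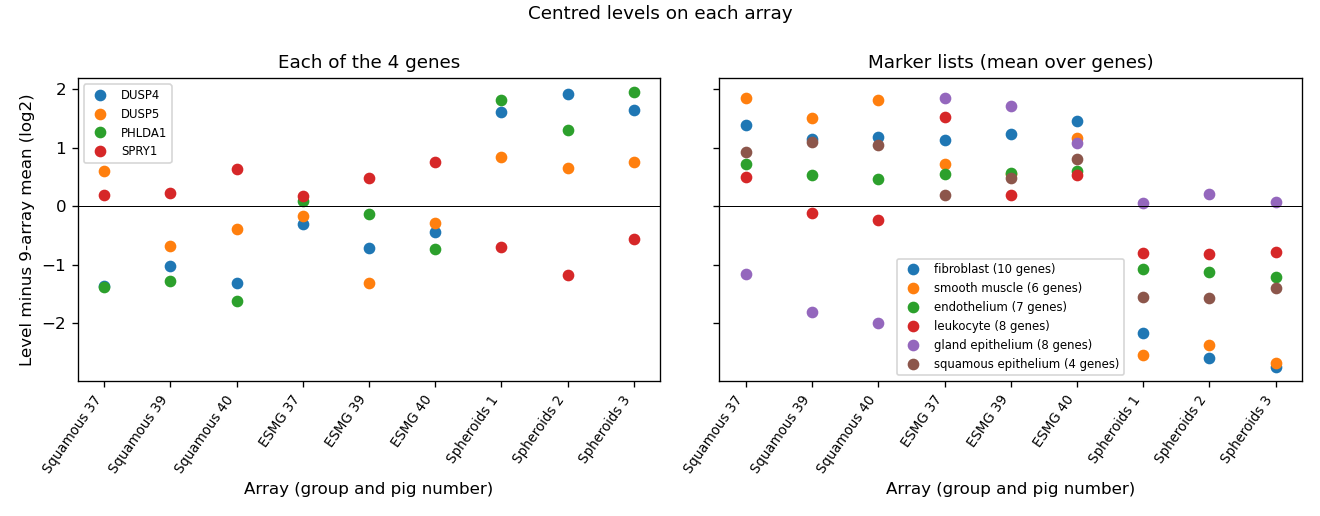
Level on each array minus the mean of 9 arrays (vertical axis, log2) for the 4 genes on the left and for 6 marker lists on the right, averaged over the genes of a list; each point is 1 array. SPRY1 lies between -1.18 and -0.56 on the spheroid arrays, and the fibroblast markers between -2.76 and -2.17.

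The other MAP kinase phosphatases followed DUSP4 and DUSP5 in part. Of the 10 genes of that family 6 were measured. In spheroids 3 were called higher than in ESMG and none lower, beside 7.99% of all genes called higher. DUSP4 and DUSP5 were 2 of the 3. The remaining one was DUSP7, a cytoplasmic phosphatase of ERK, which lay at 8.77, 8.68 and 9.90 in ESMG of pigs 37, 39 and 40 and between 10.93 and 11.46 in the 3 spheroid samples. Its spheroid arrays were all above its ESMG arrays, by 2.02 on average (SE 0.32, adjusted p = 0.000357 by limma). DUSP10, which acts on JNK and p38, was higher in spheroids than in squamous tissue by 1.22 (adjusted p = 0.0128). That call was lost without the squamous array of pig 39 (0.72). Against ESMG, DUSP10 (0.68), DUSP1 (0.46) and DUSP2 (0.048) were not called. DUSP6, the cytoplasmic ERK phosphatase most often read as a measure of ERK output, was not analysed here, nor were DUSP8, DUSP9 and DUSP16.

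Within the Sprouty family the fall was called for SPRY1 alone. All 7 Sprouty and Spred genes were measured. Against ESMG 1 was called lower, SPRY1, and 1 higher, SPRED1, which brings the Ras inhibitor neurofibromin to the membrane. Of all genes 8.91% were called lower and 7.99% higher. SPRY2 was higher in spheroids by 0.58 (SE 0.14, adjusted p = 0.00567 by limma), under the fold minimum. SPRY4, at 0.35, and SPRY3, at 0.078, did not pass the test. SPRED1 was higher by 1.05 (SE 0.25, adjusted p = 0.00489). Its value was between 0.83 and 1.23 over the settings run, and the call was lost after quantile normalization, after cyclic loess, and without the ESMG array of pig 40 or the spheroid array of pig 3. PHLDA2 and PHLDA3, the relatives of PHLDA1, were not analysed here.

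Genes listed as feedback on the receptor itself did not move one way. Of 7 measured genes of that list 2 were called lower in spheroids than in ESMG and none higher. CBLC, a ubiquitin ligase that marks receptors for breakdown, was higher by 0.97 (SE 0.15, adjusted p = 0.000279 by limma), just under the fold minimum. It was called with array medians set equal (1.08) and on leaving out the ESMG array of pig 39 or the spheroid array of pig 3. LRIG1, a membrane protein that promotes breakdown of EGF receptors, lay at 7.97, 8.43 and 7.38 in ESMG and at 5.10, 5.29 and 5.54 in spheroids. The latter values were under or near the lower quartile of those arrays, so the fall of 2.61 (adjusted p = 5.23e-06) depends on levels near the floor. LRIG3 was lower by 1.07 (-1.07, adjusted p = 0.000286), a call that was lost with array medians set equal and on leaving out the ESMG array of pig 39 or the spheroid array of pig 1. Over the 4 feedback lists together, 21 of 29 genes were measured, 5 were called higher and 3 lower in spheroids than in ESMG. The 5 include DUSP4, DUSP5 and PHLDA1, and the 3 include SPRY1. Apart from these members, DUSP7 and SPRED1 were called higher and LRIG1 and LRIG3 lower. Of all genes 7.99% were called higher and 8.91% lower. The settings run gave 4 to 6 higher and 2 to 3 lower. The median difference of the 21 genes, members included, was 0.33, beside 0.085 for all genes, and 0.20 after cyclic loess.

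Of 7 measured transcripts that ERK raises without a braking role, 3 were called higher in spheroids than in ESMG, beside 7.99% of all genes. None of the 7 was called lower. Their median of 0.44 ranged from 0.055 without the ESMG array of pig 39 to 1.23 without that of pig 40. IER3, an early response gene, was 3.72 above ESMG (adjusted p = 9.76e-06), with 8.27, 8.41 and 10.00 in ESMG of pigs 37, 39 and 40 against 12.54, 12.80 and 12.50 in spheroids. ETV4, an ETS transcription factor, was higher by 1.94 (adjusted p = 1.61e-05), and the cyclin CCND1 by 1.53 (adjusted p = 3.60e-06). Of 5 measured genes of a cell cycle list 2 were also called higher than in ESMG and none lower. CDK1 lay at 7.70 in ESMG and 9.44 in spheroids, and UBE2C at 8.18 and 10.93. The part of cell division in the difference of CCND1 was not tested. The immediate early genes EGR1 (-0.59), FOS (0.44) and MYC (0.32) did not pass, though FOS did without the ESMG array of pig 40 (1.23, adjusted p = 0.0277). ETV1, a close relative of ETV4, did not separate spheroids from ESMG (-0.22, adjusted p = 0.669) but was higher in ESMG than in squamous tissue by 2.79 (adjusted p = 0.000859).

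A published list of transcripts used to read MAP kinase activity in human tumours holds DUSP4 and PHLDA1 but not DUSP5 or SPRY1. Of its 8 measured genes 5 were called higher in spheroids than in ESMG and none lower, beside 7.99% and 8.91% of all genes. Apart from DUSP4 and PHLDA1 these were CCND1, ETV4 and the ephrin receptor EPHA2, higher by 1.60 (adjusted p = 1.36e-05). The same 5 were called higher against squamous tissue, beside 8.61% of all genes. The median difference without DUSP4 and PHLDA1 was 1.06, and SPRY2, SPRY4 and EPHA4 (0.51) were not called.

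**Figure D4:**
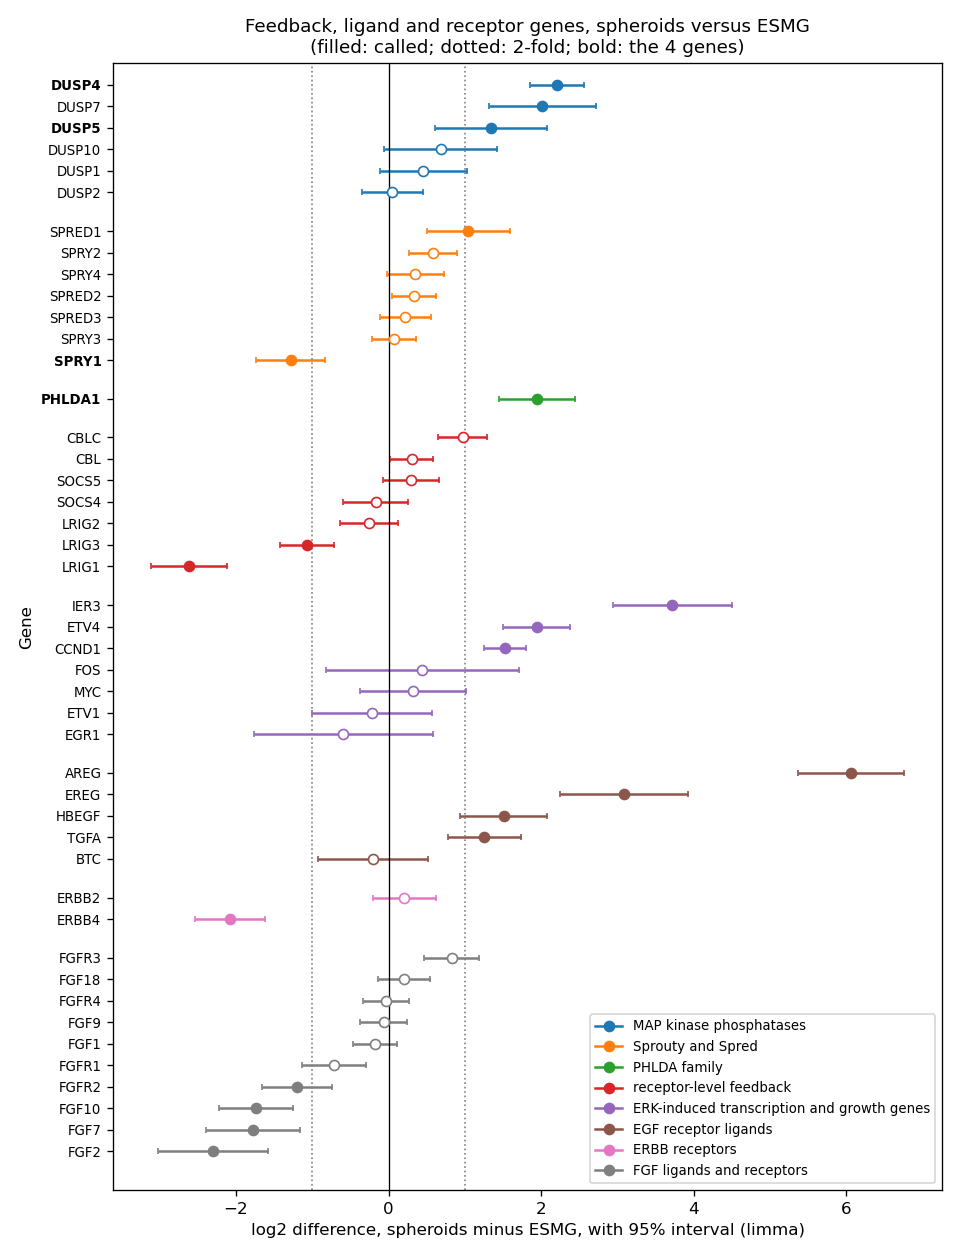
Difference between spheroids and ESMG (horizontal axis, log2) with 95% intervals from limma for every measured gene of 8 lists, from feedback genes to ligands and receptors. Filled points were called, dotted lines mark 2-fold and bold names are the 4 genes. SPRY1 is the only called fall among Sprouty and Spred genes, and 4 of 5 EGF receptor ligands are called higher.

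Upstream of the 4 genes, most measured ligands of the EGF receptor were higher in spheroids than in ESMG. Of 5 measured ligands 4 were called higher than in ESMG and none lower, beside 7.99% and 8.91% of all genes. AREG was higher by 6.06, EREG by 3.09, HBEGF by 1.51 and TGFA by 1.26. Against squamous tissue 3 of the 5 were called higher, AREG, EREG and TGFA, beside 8.61% of all genes. HBEGF, at 8.65 in squamous tissue and 9.31 in spheroids, was not called there. AREG lay at 4.94, 4.67 and 5.88 on the ESMG arrays, 2 of them under the lower quartile, so its fold rests on values near the floor. The EGF receptor gene itself, EGFR, was not analysed here. Of its relatives ERBB2 did not pass (0.21, adjusted p = 0.417) and ERBB4 was lower than in ESMG by 2.08 (-2.08, adjusted p = 1.41e-05).

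Most kinases and adaptors between receptor and nucleus were not called. In the Ras-ERK cascade 14 genes were measured. In spheroids 1 was called higher than in ESMG and none lower, beside 7.99% and 8.91% of all genes. The median was 0.22, or 0.059 after cyclic loess. It was RPS6KA1, a kinase that ERK activates, at 8.44, 7.89 and 8.29 in ESMG and 10.21, 10.19 and 10.09 in spheroids (1.96, adjusted p = 3.72e-06). GAB1, a docking protein of receptor signalling, was lower than in squamous tissue by 1.23 (-1.23, adjusted p = 1.99e-05).

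Ligands and receptors of FGF signalling, which Sprouty proteins limit, were lower in spheroids where they were called. The median of the 10 measured genes was -0.45. Of these, 4 were called lower than in ESMG and none higher, beside 8.91% of all genes called lower. They were the ligands FGF2 (-2.31), FGF7 (-1.78) and FGF10 (-1.74), of which FGF7 and FGF10 come largely from mesenchymal cells, and the receptor FGFR2 (-1.20). FGF2 lay at 10.48, 10.03 and 10.05 in ESMG and 7.91, 7.81 and 7.93 in spheroids. FGF7 and FGF10 lay under the lower quartile of every spheroid array. With the dimmest 1 in 3 genes left out, 4 of the 10 genes were still tested, FGF2, FGFR1, FGFR2 and FGFR3, and both FGF2 and FGFR2 kept their call. FGFR3 was higher by 0.83 (adjusted p = 0.00161), under the fold minimum. Against squamous tissue FGF2, FGF7 and FGFR2 were called lower.

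The genes whose profile over the 9 arrays was closest to each member were found by the root mean square difference of centred log2 levels among 11077 other named genes. The 3 closest to DUSP4 were TMC4, a channel-like membrane protein, at 0.23, ETV4 at 0.25 and the membrane mucin MUC1 at 0.29. Those closest to PHLDA1 were TMC4 at 0.27, FGD6, an exchange factor for CDC42, at 0.31 and FAM198B at 0.33. DUSP4 itself ranked 6 among all genes in closeness to PHLDA1, at 0.37. TMC4 lay at 7.13 in squamous tissue, 8.12 in ESMG and 10.03 in spheroids, the group order shared by DUSP4 and PHLDA1.

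DUSP5 did not share that profile. Its nearest genes were IL1RL1, the receptor of interleukin-33, at 0.22, ACTN1, an actin crosslinker, at 0.28 and CDC42EP3, a CDC42 effector, at 0.29, each with its lowest mean in ESMG. Both IL1RL1 and DUSP5 were higher on the squamous array of pig 37 than on the other tissue arrays. The other 5 tissue values of IL1RL1, from 4.21 to 5.02, were under the lower quartiles of their arrays, so this likeness rests on levels near the floor. PHLDA1 and DUSP4 differed from DUSP5 by 1.07 and 0.95. Those closest to SPRY1 were CLEC3B, or tetranectin, at 0.15, CNOT8, a subunit of the CCR4-NOT deadenylase, at 0.15 and CHD2, a chromatin remodeller, at 0.16. These 9 arrays form 3 groups, so likeness mainly reflects the order of 3 group means.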

How the data were processed

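Per the labels, the authors ran Affymetrix Expression Console's gene-level RMA on the full probe set list and deposited its log2 values. The submitters' processing notes also name Transcriptome Analysis Console 3.0, with no stated use. RMA subtracts background, brings the array distributions together and shrinks differences near the floor. No genome build is given in the sources used here, so no coordinates are printed. No detection p-value was used.

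Of 27558 probe sets 13157 had 1 symbol, 523 several and 13878 were not named in the platform annotation. Symbols were updated by gene number with RefSeq's Sscrofa11.1 table (12841 matched), and the brightest probe set stood for each of 12217 genes. A group-means model of 9 arrays was fitted with limma 3.58.1 in R 4.3.3 (6 residual degrees of freedom), with Python 3.11.15, pandas 2.3.3 and matplotlib 3.10.9 for tables and plots. The fit was also run on simulated arrays with known folds, noise independent between genes and arrays, and no pig effect. Its outcome is not given here, and that run does not bear on effects of the pig. The precision is limited by 3 arrays per group.

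The members and the 20 lists (115 of 168 symbols measured) were chosen with earlier results of these data known. Named genes are the members, list genes and the 3 nearest profiles per member; list genes that were not called are named to complete a family. ESMG and squamous arrays with 1 pig number come from the same animal, per the labels. Over genes, deviations of the 2 arrays from their group means correlated at 0.42, -0.15 and -0.17 for pigs 37, 39 and 40. Arrays of different pigs gave -0.31 to 0.37, so only pig 37 lay above them. Alternatives were other normalizations, filters, probe set choices, spread models, the pig as a block and leaving out each array.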

Additional observations from a re-analysis of the deposited data

How the results depend on the processing

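The 12 differences of the 4 genes were recomputed under 14 or 15 alternatives each, 172 values in all, of which 164 kept their direction and their side of the call. The other 8 concerned 5 differences, and came from leaving out an array or setting array medians equal. Filtering dim genes, keeping every probe set, fitting only the arrays compared, blocking by pig and changing the spread model left each log2 difference unchanged. Those settings could alter only the adjusted p, so the count of 164 overstates how far the differences were tried. DUSP5 between spheroids and squamous tissue was called with array medians set equal (1.04), and ranged from 0.65 to 1.29 when single arrays were left out. DUSP5 between spheroids and ESMG ranged from 0.98 to 1.56, and PHLDA1 between ESMG and squamous tissue from 0.99 to 1.40, when single arrays were left out. SPRY1 between spheroids and squamous tissue ranged from -1.29 to -0.98, and between ESMG and squamous tissue from -0.020 to 0.27, with the change of sign (-0.020) without the ESMG array of pig 40. The cause of these shifts was not tested, beyond the smaller number of arrays. With pig as a fixed replicate block the ESMG against squamous differences of DUSP4, DUSP5, SPRY1 and PHLDA1 were 0.74, -0.44, 0.12 and 1.16, and 397 genes were called; the block changed no call on the 4 genes. Called genes between ESMG and squamous tissue numbered 374, of them 50 lower, and 276 to 569 when single arrays were left out, with 24 to 122 lower. The highest counts came without the ESMG array of pig 40 (569, of them 122 lower), while leaving out ESMG of pig 39, ESMG of pig 37, squamous tissue of pig 40 or squamous tissue of pig 37 gave 24, 25, 27 and 30 lower calls. Between spheroids and ESMG, 976 genes were higher and 1089 lower, a split of 1244 and 935 when array medians were equalised and 755 and 1245 by cyclic loess. Against squamous tissue 1052 and 983 became 1370 and 834 when medians were equalised and 891 and 1060 by cyclic loess. Equal medians moved the median of all genes from 0.085 to 0.20 and from 0.033 to 0.16 in these 2 comparisons; relative to that, DUSP4, DUSP5 and PHLDA1 stayed higher and SPRY1 lower. Levels near the floor, such as AREG in tissue, limit the folds that can be read.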
